A study of Mus musculus with 22 samples.

Results

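The uptake of dead neurons by retinal microglia without apolipoprotein E was examined by comparing 6 phagocytic with 6 non-phagocytic Apoe -/- libraries, chosen by their labels from 22 libraries in all. Every group of the series was taken from the retina at 12 weeks of age, after intravitreal injection of apoptotic neurons, so that the cells called non-phagocytic also came from injected eyes. The strain is given as Apoe KO for Apoe -/- libraries and as C57BL/6 for the 10 wild-type libraries (5 phagocytic, 5 non-phagocytic), which served for the test of the difference between genotypes. Per the file headers, cells were taken 24 hours after the injection and profiled by SMART-Seq2, which copies whole transcripts and needs few cells. Cells that were CD11b+, Ly6c- and Fcrls+ were sorted and then divided by the fluorescence of Alexa488, which marked the dead neurons. Each library pooled 5 to 6 retinas of mice of 1 sex and genotype, from which 100 to 500 phagocytic cells were collected. The labels number the pools from 1 to 6 in each sort but do not say which numbers share mice or which sex a pool had. A p-value below measures the spread between such pools.

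Microglia, the resident macrophages of neural tissue, recognise dying cells through receptors for phosphatidylserine and its bridging proteins, engulf them, and break them down in lysosomes acidified by a proton pump, the V-type ATPase. The cholesterol and fatty acids of the digested cell are stored in lipid droplets or exported by transporters that the sterol-sensing receptors LXR control. Apolipoprotein E, which the mutant mice lack, is one of the acceptors of exported lipid and is itself an LXR target. In microglia the uptake of apoptotic neurons is known for a change from the homeostatic state, marked by P2ry12 and Tmem119, towards a state named MGnD or disease-associated, marked by Gpnmb, Lgals3 and Spp1.

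The 12 libraries held between 1131045 and 3643499 estimated reads in the phagocytic and between 1671145 and 3129976 in the non-phagocytic group, with p = 0.506 in an exact permutation test of the means (two-sided; 0.687 after Benjamini-Hochberg adjustment over 5 measures of the libraries). Predicted genes made of satellite repeats took 13.6% to 36.9% of the reads in phagocytic and 17.0% to 51.7% in non-phagocytic libraries (exact p = 0.506), and non-phagocytic pools 2 and 5, with 51.7% and 47.6%, stood apart. The genes of the sort were measured in both groups. Itgam, which encodes CD11b, ranged from 546 to 716 CPM (median 598) in phagocytic and from 209 to 657 CPM (median 527) in non-phagocytic libraries, and Fcrls from 173 to 665 CPM (median 430.1) and from 131 to 484 CPM (median 321), with overlapping groups in both cases. Ly6c2 reached no more than 11.5 CPM and Ly6c1 no more than 4.14 CPM in any of the 12 libraries. The deleted gene kept few reads: Apoe ranged from 8.83 to 34.5 CPM (median 15.2) in phagocytic and from 6.96 to 17.5 CPM (median 8.91) in non-phagocytic Apoe -/- libraries, against 2254 ± 1623 CPM (SD, n = 5) in wild-type phagocytic libraries. CPM here are estimated counts divided by the TMM-scaled library size and brought to a common total.

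Among the genes that were higher in cells that had taken up dead neurons were Plin2 and Abca1, which serve the storage and export of lipid, the lysosomal genes Lamp1 and Ctsb, the ferritin genes Fth1 and Ftl1 and the chemokine gene Ccl9. Among the lower ones were the immediate early genes Egr1 and Btg2. The quasi-likelihood test of edgeR was run on 12415 genes, with p-values adjusted by the method of Benjamini and Hochberg and a threshold of 0.05. It called 58 genes, which is 0.467% of those tested. Of these, 50 were higher (0.403%) and 8 lower (0.0644%) in phagocytic cells, all of them protein-coding genes. The counts of calls given below for lists of genes stand against these shares, at which a list may hold no call. Positive estimates made up 47.8% of all genes tested, and the counts of signs stand against that share. Log2 fold changes, phagocytic over non-phagocytic, lay between 0.70 and 4.21 among the higher genes, with a median of 1.35, while the median over all genes tested was -0.02. The CPM of the 6 phagocytic libraries lay entirely above those of the 6 non-phagocytic libraries for 27 of the 50 genes, and entirely below for 7 of the 8. Over all genes tested, 0.524% were without overlap in the higher and 0.346% in the lower direction. The 58 genes were chosen on the same libraries, so that their larger share without overlap is no independent evidence. Without non-phagocytic pools 2 and 5 the number of genes past the threshold fell to 16, of which 12 were among the 58. These were Plin2, Ccl9, Ninj1, Uap1l1, Fth1, Ftl1, Bst2, Pf4, F13a1, Egr1, Btg2 and H2-DMb2, whereas Ctsb (adjusted p = 0.0647), Lgals3 (0.0647), Lyz2 (0.0777), Gpnmb (0.0954) and Abca1 (0.0567) no longer passed. With 1 library left out the number was between 21 and 70, and it moved by over 1.5 times without phagocytic pool 4 (32 genes), 5 (21) or 6 (30) or non-phagocytic pool 3 (38), 4 (24), 5 (32) or 6 (27). In each of these 12 fits 17 of the 58 genes passed, namely the 12 above apart from H2-DMb2, together with Ctsb, Cndp2, Lgals3, Lyz2, Gpnmb and Abca1.

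**Figure D1:**
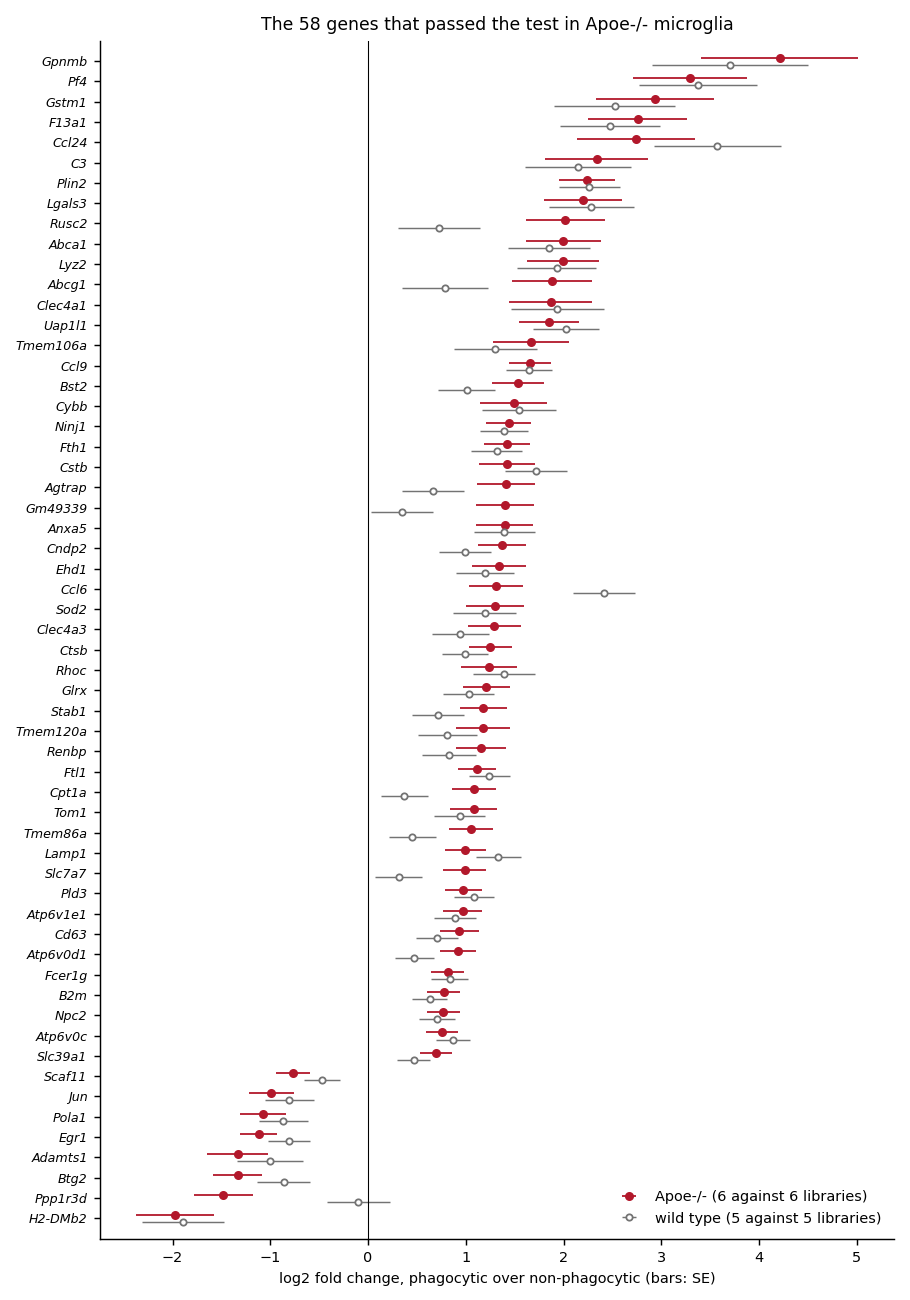
Log2 fold change, phagocytic over non-phagocytic, of the 58 genes that passed the test in Apoe -/- microglia (filled points, 6 against 6 libraries) and of the same genes in wild-type microglia (open points, 5 against 5 libraries), with bars for the SE. The estimates run from -1.97 for H2-DMb2 to 4.21 for Gpnmb, and each of the 58 genes has the same sign in both genotypes.

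A gene of lipid storage had the smallest p-value. Plin2 (build GRCm38, chromosome 4, 86648386 to 86670060), which encodes the coat protein of lipid droplets, ranged from 191 to 523 CPM (median 315) in phagocytic and from 54.8 to 89.0 CPM (median 78.0) in non-phagocytic libraries. The lowest phagocytic pool lay far above the highest non-phagocytic one (4.74-fold in the means, log2 fold change 2.24 ± 0.28, adjusted p = 0.00024). Cpt1a, the enzyme that commits long-chain fatty acids to oxidation in mitochondria, was 2.11-fold higher (log2 fold change 1.08 ± 0.22, adjusted p = 0.0205), with libraries from 46.9 to 102 CPM (median 74.9) against 26.2 to 48.3 CPM (median 34.4) and a slight overlap. These were the only 2 of 30 tested genes on the list for lipid droplets and fatty acids to pass, while 24 of the 30 had a positive estimate and the list's median was 0.37. The fatty acid carrier Fabp3 was listed from 2.76 to 9.82 CPM (median 3.94) in phagocytic libraries and at 0 in most non-phagocytic ones, where the highest value was 2.68 CPM, and did not pass (adjusted p = 0.149).

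Among LXR targets and genes of cholesterol export, 3 of 23 tested genes rose and none fell. Abca1 (chromosome 4, 53030787 to 53159895), which loads cholesterol onto lipid-poor apolipoproteins, ranged from 145 to 474 CPM (median 239.9) in phagocytic and from 20.5 to 115 CPM (median 75.7) in non-phagocytic libraries, without overlap (4.03-fold, log2 fold change 2.00 ± 0.38, adjusted p = 0.0125). Abcg1 (chromosome 17, 31057675 to 31117988), which exports cholesterol to larger particles, ranged from 68.9 to 301 CPM (median 193) and from 22.5 to 75.4 CPM (median 51.3), with 1 phagocytic pool inside the range of the non-phagocytic ones (3.74-fold, log2 fold change 1.88 ± 0.41, adjusted p = 0.0272). In both sorts the transporters had all values of pools 4 to 6 above those of pools 1 to 3. Npc2, which hands cholesterol out of the lysosome, was 1.71-fold higher (log2 fold change 0.77 ± 0.17, adjusted p = 0.0331). Its call was lost in 9 of 12 cases with 1 library left out and in 5 of 14 other alternatives. The other 20 members did not pass, and 17 of the 23 estimates were positive (median 0.52). Nr1h3, the gene of LXR alpha, had 8.82 ± 3.39 against 2.60 ± 2.27 CPM in the means (log2 fold change 1.66 ± 0.61, adjusted p = 0.314). Srebf1, an LXR target that drives fatty acid synthesis, had 64.7 ± 8.09 against 50.6 ± 15.8 CPM (log2 fold change 0.37 ± 0.24, adjusted p = 0.687). Of 26 tested genes of sterol synthesis and uptake none passed, with a median of -0.01. The call of Abcg1 was lost without any 1 of 7 libraries, namely phagocytic pools 4, 5 and 6 and non-phagocytic pools 1, 2, 3 and 6. Its adjusted p reached 0.315 over all alternatives.

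**Figure D2:**
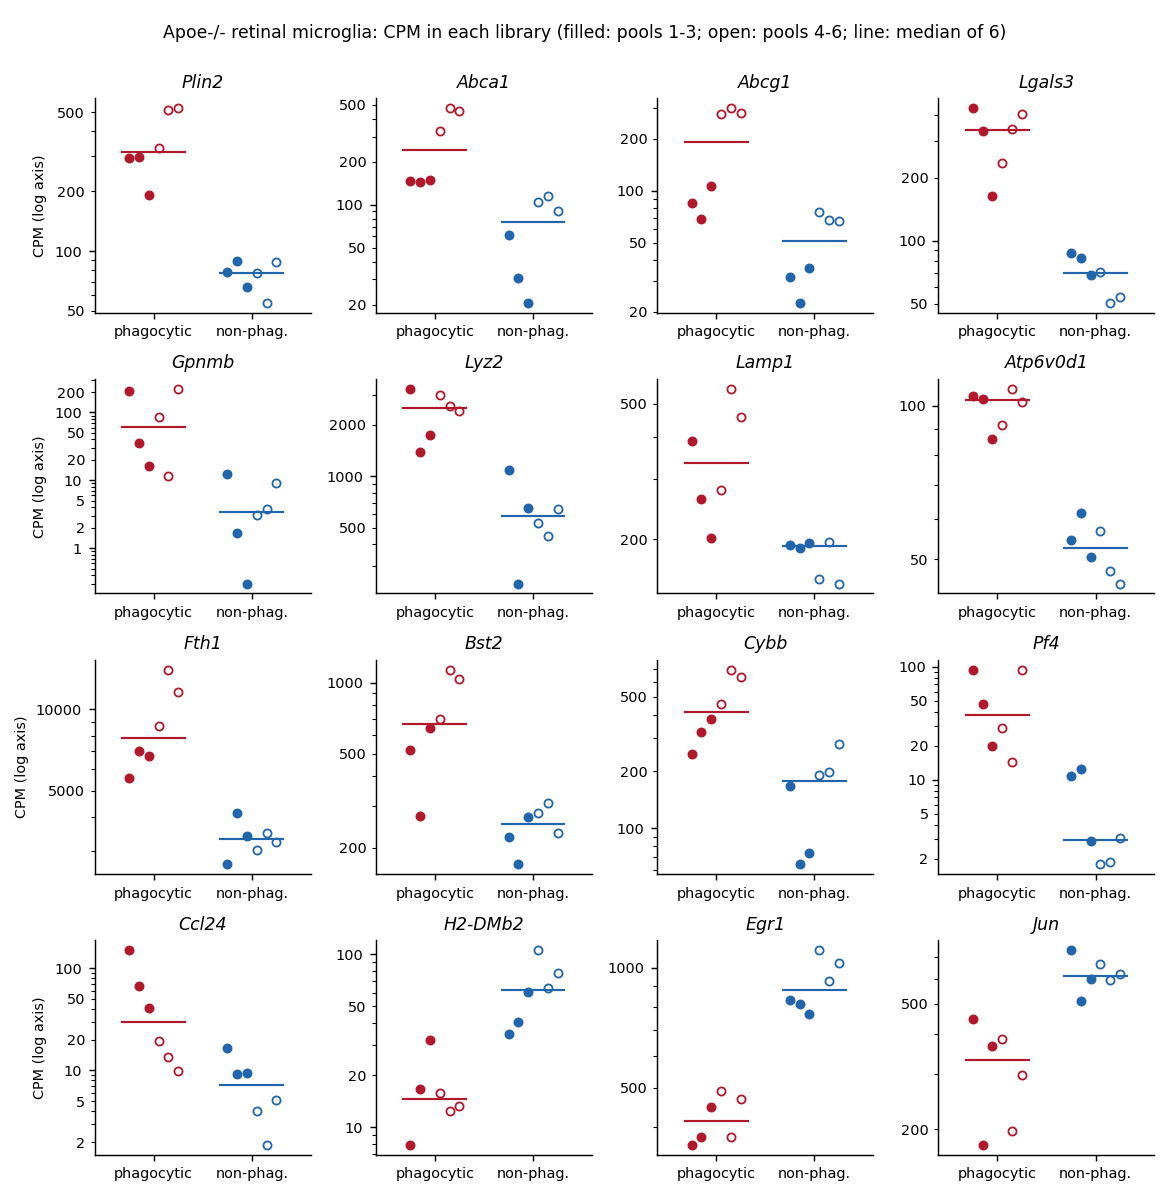
CPM of 16 genes in each phagocytic (red) and non-phagocytic (blue) Apoe -/- library on log axes, with filled points for pools 1 to 3, open points for pools 4 to 6 and a line at the median of 6; the library of Gpnmb with 0 reads is drawn at the foot of its axis. Plin2, Abca1, Fth1, Egr1 and Jun show no overlap between the groups, and the pools of Abca1, Abcg1 and Ccl24 lie in separate layers within each group.

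Of 31 tested genes of the lysosomal membrane and proton pump 6 rose in phagocytic cells (19.4%), and of 39 tested lysosomal hydrolases 1 rose (2.56%). Over all genes tested 0.403% rose, and the difference between these lists was not tested. Lamp1 (chromosome 8, 13159161 to 13175338), a main glycoprotein of the lysosomal membrane, ranged from 202 to 553 CPM (median 334) in phagocytic and from 148 to 196 CPM (median 191) in non-phagocytic libraries, a 1.99-fold difference (log2 fold change 0.99 ± 0.21, adjusted p = 0.0217). The lowest phagocytic pool was only just above the highest non-phagocytic one. Of the subunits of the V-type ATPase, Atp6v0d1 ranged from 86.1 to 108 CPM (median 103) and from 44.8 to 61.6 CPM (median 52.5), giving a log2 fold change of 0.92 ± 0.19 (adjusted p = 0.0205). Atp6v1e1 ranged from 88.8 to 144 CPM (median 105) and from 40.2 to 68.5 CPM (median 59.6), giving a log2 fold change of 0.97 ± 0.20 (adjusted p = 0.0205). Atp6v0c ranged from 662 to 1039.5 CPM (median 822) and from 437 to 533 CPM (median 500.1), giving a log2 fold change of 0.76 ± 0.16 (adjusted p = 0.0242). In none of the 3 subunits did the groups overlap, and each rise was below 2-fold. Cd63, a tetraspanin of late endosomes, rose 1.91-fold (log2 fold change 0.93 ± 0.20, adjusted p = 0.0243). Npc2 was the other of the 6 on that list, where 29 estimates were positive and the median was 0.60. The hydrolase that passed was Ctsb. This cysteine protease, cathepsin B, ranged from 2279 to 4779 CPM (median 3531) and from 879 to 2001 CPM (median 1573), without overlap (log2 fold change 1.25 ± 0.22, adjusted p = 0.00622), while the median of the hydrolases was 0.31 with 31 estimates above 0. Ctsd, an aspartic protease, had 4164 ± 551 against 2316 ± 854 CPM and did not pass (log2 fold change 0.85 ± 0.25, adjusted p = 0.159), nor did the DNA-degrading Dnase2a (log2 fold change 0.74 ± 0.22, adjusted p = 0.167). Pld3 and Cstb stood on no list. Pld3, a lysosomal exonuclease, rose 1.97-fold (log2 fold change 0.97 ± 0.19, adjusted p = 0.0149), and Cstb, the gene of cystatin B, an inhibitor of cysteine cathepsins, rose 2.68-fold (log2 fold change 1.42 ± 0.29, adjusted p = 0.0205), both without overlap. Calls of the pump subunits and Lamp1 were lost when 1 library was left out in 3 of 12 cases for Atp6v0d1 and Atp6v1e1, 4 for Lamp1 and 7 for Atp6v0c and Cd63, among them phagocytic pool 5 for each. The call of Npc2 was lost in 9 of 12 such cases.

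The 250 bases before the start of Lamp1 are shown because its promoter held the motif CACGTG, the core of the sites that the lysosomal regulators of the TFEB family bind, more often than that of any other gene that passed. The sequence is from RefSeq (build GRCm38.p6, chr8:13158911-13159160, plus strand), 5′ to 3′ along the gene, with matches of CACGTG, and of GAAA followed after any 2 bases by GAAA, on either strand in capitals.
Lamp1: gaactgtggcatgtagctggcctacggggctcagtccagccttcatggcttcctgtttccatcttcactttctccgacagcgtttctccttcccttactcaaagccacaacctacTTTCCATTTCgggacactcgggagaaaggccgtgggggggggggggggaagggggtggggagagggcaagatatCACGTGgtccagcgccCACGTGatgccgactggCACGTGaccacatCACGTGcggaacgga
CACGTG occurred 4 times in it. Among the 42 of 50 higher genes with a promoter in the RefSeq table, 3 had the motif in this window (7.14%), namely Lamp1, Abca1 and Agtrap, and among the genes tested 9.76% did. Of the genes on both lysosomal lists together, whether or not they changed, 28.1% of 57 had it. The motif was thus not more frequent among the genes that rose than among all genes tested.

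Both chains of ferritin, the protein that stores iron, rose. Fth1 (chromosome 19, 9980598 to 9985098), the heavy chain of ferritin, ranged from 5558 to 14052 CPM (median 7833) in phagocytic and from 2676 to 4132 CPM (median 3316) in non-phagocytic libraries, a 2.69-fold difference (log2 fold change 1.43 ± 0.24, adjusted p = 0.00525). Ftl1, the light chain, ranged from 3215 to 5372 CPM (median 4043) and from 1633 to 2309 CPM (median 1854), a 2.16-fold difference (log2 fold change 1.11 ± 0.19, adjusted p = 0.00622). Neither gene overlapped between the groups; both have near-identical pseudogenes, among which reads may have been shared. They were the 2 of 20 iron genes that passed (10%, against 0.467% of all genes tested), with 16 estimates above 0 and a median of 0.46. Hmox1, the haem-degrading enzyme, had 247 ± 136 against 81.6 ± 47.6 CPM (log2 fold change 1.58 ± 0.47, adjusted p = 0.167). The ferroxidase gene Cp had 152 ± 82.0 against 57.3 ± 30.1 CPM (log2 fold change 1.39 ± 0.45, adjusted p = 0.211).

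Of 31 tested antioxidant genes 4 passed, the ferritins included (12.9%, against 0.467% of all genes tested), with 23 positive estimates and a median of 0.26. Gstm1, a glutathione transferase, ranged from 6.41 to 28.6 CPM (median 17.8) in phagocytic libraries and from 0 to 6.65 CPM (median 0.758) in non-phagocytic ones, with 1 overlap (log2 fold change 2.94 ± 0.60, adjusted p = 0.0205; reads of its close paralogues can be confused with it). Sod2, the superoxide dismutase of mitochondria, ranged from 180.4 to 587 CPM (median 286) and from 85.2 to 197 CPM (median 134), giving a log2 fold change of 1.30 ± 0.30 (adjusted p = 0.0399). Glrx, a glutaredoxin that reduces protein disulphides and stood on no list, ranged from 112 to 313 CPM (median 234) and from 90.7 to 112 CPM (median 92.3), just without overlap (log2 fold change 1.21 ± 0.24, adjusted p = 0.0205). Of 8 tested genes of the NADPH oxidase, which makes superoxide in phagosomes, Cybb was the one that rose, the catalytic subunit gp91phox (248 to 697 CPM, median 416, in phagocytic against 64.1 to 279 CPM, median 179, in non-phagocytic libraries; 2.82-fold, log2 fold change 1.49 ± 0.34, adjusted p = 0.0463). Its partner Cyba had 525 ± 56.4 and 389 ± 91.8 CPM (log2 fold change 0.44 ± 0.16, adjusted p = 0.332). The call of Cybb was lost in 9 of 12 cases with 1 library left out (phagocytic pools 3 to 6 and non-phagocytic pools 1 to 5). That of Sod2 was lost in 8 of 12 such cases, and those of Gstm1 and Glrx in 4 each.

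Of 28 tested receptors that recognise apoptotic cells and their bridging proteins, Stab1, a scavenger receptor for phosphatidylserine, was the one that rose, with libraries from 271 to 880.3 CPM (median 495) against 168 to 308 CPM (median 225), a 2.27-fold difference (log2 fold change 1.18 ± 0.24, adjusted p = 0.0205). Its call was lost in 7 of 12 cases with 1 library left out (phagocytic pools 4, 5 and 6 and non-phagocytic pools 2, 3, 5 and 6), and its adjusted p reached 0.558 over all alternatives. Stab1 also stands on the list of border macrophage markers, whose summed CPM did not overlap between the groups. That sum includes Stab1 itself, with 518 of 1092 CPM in phagocytic and 228 of 457 CPM in non-phagocytic libraries in the means. The median of the recognition list was 0.18 with 18 estimates above 0. The phosphatidylserine receptor kinases Mertk (213 ± 41.6 against 247 ± 70.1 CPM; log2 fold change -0.21 ± 0.25, adjusted p = 0.866) and Axl (274 ± 107 against 248 ± 86.0 CPM; log2 fold change 0.14 ± 0.28, adjusted p = 0.936) did not pass. The same held for the scavenger receptors Cd36 (log2 fold change 0.60 ± 0.34, adjusted p = 0.595) and Msr1 (296 ± 139.8 against 116 ± 63.9 CPM; log2 fold change 1.35 ± 0.41, adjusted p = 0.185). Of 39 tested genes of engulfment and phagosome maturation none passed, against 0.467% of all genes tested, with 32 estimates above 0 and a median of 0.20. The smallest p there was that of Rab20, a GTPase of maturing phagosomes (log2 fold change 0.98 ± 0.27, adjusted p = 0.129). Anxa5, which encodes the phosphatidylserine-binding annexin A5, rose 2.63-fold (89.4 to 217 CPM, median 188, in phagocytic against 38.8 to 95.7 CPM, median 71.2, in non-phagocytic libraries; log2 fold change 1.4 ± 0.29, adjusted p = 0.0205). Of 6 tested Fc receptor genes, the shared signalling chain Fcer1g rose 1.76-fold (log2 fold change 0.81 ± 0.17, adjusted p = 0.0242), whereas Fcgr4 did not pass (log2 fold change 0.90 ± 0.24, adjusted p = 0.12).

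The list of MGnD genes held 11 of the 50 higher genes: of its 39 members, all of them tested, 28.2% passed, 36 estimates were positive and the median was 0.60. The largest fold change on it, though not the smallest p, was that of Gpnmb (chromosome 6, 49036546 to 49070929), a glycoprotein of lysosomes. Gpnmb had 208, 35.8, 16.0, 86.3, 11.6 and 223 CPM in phagocytic pools 1 to 6 and 12.4, 1.66, 0, 3.12, 3.74 and 9.07 CPM in non-phagocytic pools 1 to 6. The pools of each group were widely spread, and the lowest phagocytic pool lay just below the highest non-phagocytic pool (19.3-fold in the means, log2 fold change 4.21 ± 0.80, adjusted p = 0.0125). The call of Gpnmb was lost with limma-voom, with limma on FPKM and without non-phagocytic pools 2 and 5. Its adjusted p reached 0.273 over all alternatives. Lgals3, which encodes galectin-3, ranged from 163 to 429.5 CPM (median 337) and from 50.5 to 87.9 CPM (median 70.0), without overlap (4.58-fold, log2 fold change 2.20 ± 0.40, adjusted p = 0.00911). Lyz2, the macrophage lysozyme, ranged from 1379 to 3239 CPM (median 2488) and from 235 to 1082 CPM (median 586), also without overlap (3.98-fold, log2 fold change 1.99 ± 0.37, adjusted p = 0.0101). Other well-known members did not pass. Spp1, osteopontin, ranged widely from 34.0 to 609 CPM (median 146) in phagocytic and from 59.5 to 143 CPM (median 87.1) in non-phagocytic libraries (log2 fold change 1.51 ± 0.59, adjusted p = 0.357). Clec7a (log2 fold change 0.26 ± 0.24, adjusted p = 0.804), Itgax (log2 fold change -0.72 ± 0.38, adjusted p = 0.561), Trem2 (log2 fold change -0.25 ± 0.34, adjusted p = 0.893) and its adaptor Tyrobp (log2 fold change 0.20 ± 0.20, adjusted p = 0.83) had estimates of either sign. Among the 6 same-numbered pairs, the phagocytic library was the lower one in 6 for Trem2, 4 for Itgax, 1 for Clec7a and 1 for Tyrobp. Since the list was drawn up with earlier results of these data known, its count is no independent evidence of a direction.

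Most homeostatic genes had negative estimates. Of 40 tested, 35 had negative estimates, as had 6484 of all 12415 genes tested, and the median was -0.41. The 2 that fell, Jun and Egr1, are also immediate early genes. P2ry12, a purine receptor, ranged from 41.9 to 275 CPM (median 149.7) in phagocytic and from 180.0 to 511 CPM (median 281) in non-phagocytic libraries, with overlap (log2 fold change -1.05 ± 0.47, adjusted p = 0.441). Tmem119 (805 ± 446 against 1006 ± 349 CPM; log2 fold change -0.32 ± 0.41, adjusted p = 0.882), the fractalkine receptor Cx3cr1 (log2 fold change -0.14 ± 0.27, adjusted p = 0.936) and the microglial transcription factor Sall1 (128 ± 22.3 against 164 ± 43.6 CPM; log2 fold change -0.35 ± 0.22, adjusted p = 0.64) stayed within overlapping ranges. All 4 were measured in each of the 12 libraries. Among the 6 same-numbered pairs, the phagocytic library was the lower one in 6 for P2ry12, 4 for Tmem119, 4 for Sall1 and 3 for Cx3cr1.

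The chemokine genes Ccl9, Ccl6, Pf4 and Ccl24 were among the higher genes; no list of chemokines was tested. Ccl9 (chromosome 11, 83572919 to 83578636) ranged from 173 to 452 CPM (median 340.2) in phagocytic and from 66.7 to 144 CPM (median 101) in non-phagocytic libraries, a 3.15-fold difference (log2 fold change 1.66 ± 0.22, adjusted p = 0.00024). Its neighbour on chromosome 11, Ccl6, ranged from 181 to 484 CPM (median 267) and from 72.3 to 177 CPM (median 120.0), a 2.48-fold difference (log2 fold change 1.31 ± 0.28, adjusted p = 0.0242). Both were without overlap. Pf4, platelet factor 4, ranged from 14.3 to 94.6 CPM (median 37.8) and from 1.79 to 12.5 CPM (median 2.95), a 9.1-fold difference (log2 fold change 3.29 ± 0.59, adjusted p = 0.00815). Ccl24, an eotaxin, ranged from 9.94 to 149 CPM (median 29.9) and from 1.87 to 16.7 CPM (median 7.15), with overlap (6.45-fold, log2 fold change 2.74 ± 0.60, adjusted p = 0.03). Pf4 and Ccl24 also stand on the list of border macrophage markers, whose summed CPM was higher in all 6 phagocytic than in all 6 non-phagocytic libraries. Both genes are themselves part of that sum. On the list of inflammatory cytokines and NF-kB targets, Ccl9 was the 1 gene of 36 to pass (29 positive, median 0.38). Clec4e, a receptor for products of cell death, narrowly missed the threshold, ranging from 11.6 to 82.3 CPM (median 51.7) in phagocytic and from 2.68 to 25.8 CPM (median 8.27) in non-phagocytic libraries (log2 fold change 2.30 ± 0.54, adjusted p = 0.0506). Of 18 tested complement genes, C3, the central component, ranged from 16.0 to 54.0 CPM (median 24.5) in phagocytic and from 0.411 to 8.47 CPM (median 5.73) in non-phagocytic libraries, without overlap (5.19-fold, log2 fold change 2.34 ± 0.53, adjusted p = 0.0378; lost in 10 of 12 cases with 1 library left out). The receptor C3ar1 did not pass (log2 fold change 0.89 ± 0.29, adjusted p = 0.216).

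Interferon-inducible genes had positive estimates in nearly all members and a single call. Of 44 tested, 43 had positive estimates, against 47.8% of all genes, and the median of 0.67 was the largest of the 26 lists of gene programmes. Bst2, tetherin, which holds budding viruses at the cell surface, was the gene that passed (271 to 1135 CPM, median 669, in phagocytic against 169.7 to 310.3 CPM, median 251, in non-phagocytic libraries; 2.9-fold, log2 fold change 1.53 ± 0.27, adjusted p = 0.00622). Its lowest phagocytic pool, pool 2, lay within the non-phagocytic range. Irf7, the transcription factor that amplifies the interferon response, ranged from 77.5 to 480.3 CPM (median 259.8) and from 53.4 to 135 CPM (median 74.0) and narrowly missed the threshold (log2 fold change 1.69 ± 0.40, adjusted p = 0.0506). The antiviral genes Oas1a (log2 fold change 1.16 ± 0.29, adjusted p = 0.0813) and Ifitm3 (log2 fold change 0.97 ± 0.30, adjusted p = 0.185) did not pass. Of 26 genes of MHC class I presentation, B2m, the shared light chain, ranged from 2257 to 3209.7 CPM (median 2947) in phagocytic and from 1083 to 2096 CPM (median 1663) in non-phagocytic libraries, without overlap (1.71-fold, log2 fold change 0.77 ± 0.17, adjusted p = 0.0262; lost in 9 of 12 cases with 1 library left out), and 23 estimates were positive (median 0.41). H2-D1, a heavy chain, had 1459.7 ± 314 against 804 ± 295 CPM (log2 fold change 0.86 ± 0.25, adjusted p = 0.148).

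Promoters of Bst2 and Cybb are shown because they held more than once the motif of GAAA, any 2 bases and GAAA. It is the core of the element that interferon regulatory factors bind. The 250 bases before each start are from RefSeq (build GRCm38.p6), 5′ to 3′ along the gene, with matches on either strand in capitals (chr8:71537473-71537722, minus strand; chrX:9469325-9469574, minus strand).
Bst2: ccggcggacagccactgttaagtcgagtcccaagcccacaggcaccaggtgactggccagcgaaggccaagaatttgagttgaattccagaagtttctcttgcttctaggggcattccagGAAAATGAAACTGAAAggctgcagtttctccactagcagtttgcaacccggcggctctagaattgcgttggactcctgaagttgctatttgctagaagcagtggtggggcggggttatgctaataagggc
Cybb: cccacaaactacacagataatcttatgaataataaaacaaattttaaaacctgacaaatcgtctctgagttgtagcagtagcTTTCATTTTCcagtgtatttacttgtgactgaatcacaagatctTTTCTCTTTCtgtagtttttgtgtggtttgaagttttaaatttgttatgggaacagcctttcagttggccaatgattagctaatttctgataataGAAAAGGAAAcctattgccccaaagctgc
Matches overlapped in Bst2, which had 2, and were apart in Cybb, which had 3. With B2m, Pld3 and Lamp1, 5 of the 42 higher genes with a promoter in the table (11.9%) had the motif, against 3.49% of the genes tested and 3.46% of all genes in the table. The search was made for 6 motifs. TGAC followed after any 3 bases by GC, the core of the antioxidant response element, was in 3 of the 7 lower genes with a promoter in the table (Ppp1r3d, Scaf11 and H2-DMb2; 42.9%) and in 1 of the 42 higher genes (Slc39a1; 2.38%), against 13.6% of the genes tested. TGACTCA was in 1 of the 42 higher genes (2.38%) and none of the 7 lower ones, against 4.01% of the genes tested. AGGTCA repeated after any 4 bases and the CArG box were in none of these genes, against 0.0105% and 1.3% of the genes tested. Egr1 was the lower gene without a promoter in the search, so its promoter was not examined for any motif. CACGTG was in 1 of the 7 lower genes (14.3%), and the GAAA motif in none. A match is a stretch of letters, not a measured site, and none of these shares was tested.

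The other 20 higher genes were on none of the lists. Ninj1 (chromosome 13, 49187485 to 49196244), whose product ruptures the plasma membrane of dying cells, ranged from 70.6 to 178 CPM (median 116) in phagocytic and from 30.8 to 48.6 CPM (median 47.7) in non-phagocytic libraries, a 2.73-fold difference (log2 fold change 1.44 ± 0.23, adjusted p = 0.00462). Uap1l1 (chromosome 2, 25359889 to 25365682), related to an enzyme of nucleotide-sugar synthesis, ranged from 59.0 to 190.5 CPM (median 128) and from 21.5 to 48.5 CPM (median 33.4), a 3.63-fold difference (log2 fold change 1.85 ± 0.30, adjusted p = 0.00525). Both were without overlap. Higher as well were Ehd1, a protein of endosomal recycling (2.54-fold, log2 fold change 1.34 ± 0.27, adjusted p = 0.0205), and Tom1, an adaptor of endosomal sorting (2.1-fold, log2 fold change 1.08 ± 0.24, adjusted p = 0.0336). Slc7a7, a transporter of cationic amino acids, rose 2-fold (log2 fold change 0.99 ± 0.22, adjusted p = 0.0378) and overlaps Oxa1l on the other strand. The same held for the zinc transporter Slc39a1 (1.62-fold, log2 fold change 0.70 ± 0.16, adjusted p = 0.0424), the dipeptidase Cndp2 (2.6-fold, log2 fold change 1.37 ± 0.25, adjusted p = 0.0086) and Renbp, an enzyme of amino sugar metabolism (2.22-fold, log2 fold change 1.15 ± 0.25, adjusted p = 0.0315). The lectin receptors Clec4a3 (2.48-fold, log2 fold change 1.29 ± 0.27, adjusted p = 0.0242) and Clec4a1 (3.76-fold, log2 fold change 1.87 ± 0.43, adjusted p = 0.0399) are close relatives, so that reads may be exchanged between them. Gm49339 (chromosome 10, 51480612 to 51496613; 2.64-fold, log2 fold change 1.4 ± 0.30, adjusted p = 0.0243) overlaps the inhibitory receptor genes Lilr4b and Lilrb4a on the same strand, and its reads cannot be told from theirs with certainty. The remaining ones were Rusc2 (4.13-fold), Agtrap (2.65-fold), Tmem86a (2.09-fold), Tmem120a (2.28-fold), Tmem106a (3.24-fold) and the small GTPase gene Rhoc (2.35-fold), with adjusted p between 0.0205 and 0.0488. With 1 library left out, the calls of Clec4a1, Tmem106a and Rhoc were lost in 10 of 12 cases. Those of Tom1, Slc7a7, Slc39a1, Tmem120a and Agtrap were lost in 9, and that of Renbp in 8. The number was 7 for Clec4a3, Gm49339 and Tmem86a, 6 for Ehd1 and 4 for Rusc2. Calls of Ninj1, Uap1l1 and Cndp2 were lost in none.

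Of the 8 genes that fell, 3 were among 36 tested immediate early genes, which respond to stimulation within minutes. Egr1 ranged from 359.7 to 491 CPM (median 413) in phagocytic and from 769 to 1108 CPM (median 881) in non-phagocytic libraries (log2 fold change -1.12 ± 0.19, adjusted p = 0.00622). Btg2 ranged from 89.4 to 200.3 CPM (median 136) and from 276 to 459 CPM (median 357), giving a log2 fold change of -1.34 ± 0.25 (adjusted p = 0.0125). Jun ranged from 178 to 448 CPM (median 332) and from 510.0 to 738 CPM (median 611), giving a log2 fold change of -0.99 ± 0.23 (adjusted p = 0.0488). None of the 3 overlapped between the groups. On the list, 30 of 36 estimates were negative, the median was -0.49, and 5 members were lower without overlap, against 0.346% of all genes. Fos, the partner of Jun in the factor AP-1, had 546 ± 119 against 793 ± 139 CPM and did not pass (log2 fold change -0.54 ± 0.18, adjusted p = 0.22), nor did Egr2 (log2 fold change -1.38 ± 0.34, adjusted p = 0.066). The call of Jun was lost in 11 of 12 cases with 1 library left out (in all but that without phagocytic pool 1), that of Egr1 and Btg2 in none.

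**Figure D3:**
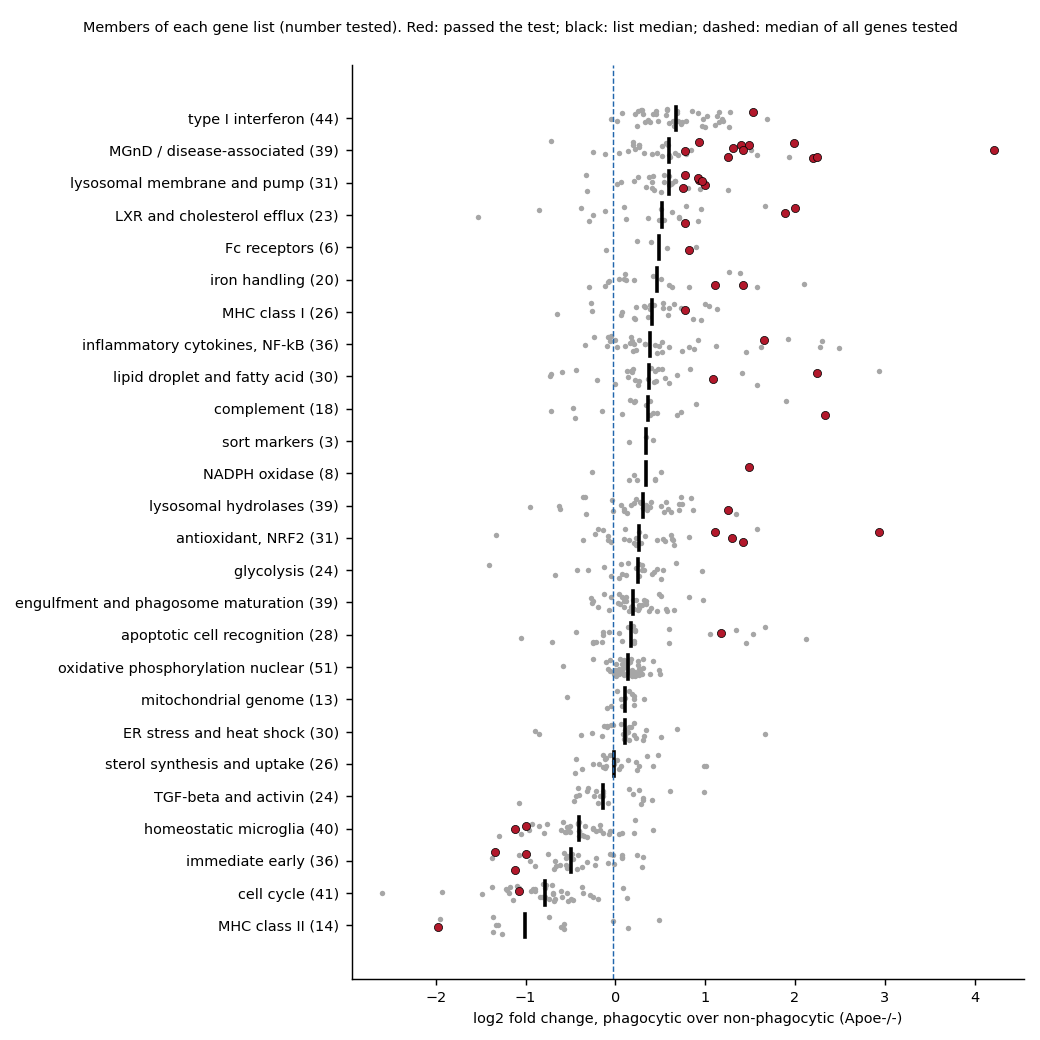
Log2 fold change, phagocytic over non-phagocytic, of every tested member of the 26 lists of gene programmes in Apoe -/- microglia, ordered by list median (black bar), with genes that passed the test in red and the median of all genes tested as a dashed line. Medians run from -1.0 for MHC class II to 0.67 for the interferon list, and most lists with genes past the threshold hold few of them.

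The largest fall was that of H2-DMb2, a chain of the chaperone that loads MHC class II molecules, which ranged from 7.91 to 32 CPM (median 14.5) in phagocytic and from 34.5 to 105 CPM (median 62.0) in non-phagocytic libraries, without overlap (log2 fold change -1.97 ± 0.40, adjusted p = 0.0205; its paralogue H2-DMb1 is close in sequence). Of 14 tested MHC class II genes it was the 1 that passed, 12 had negative estimates and the median was -1.0. The class II chain H2-Aa ranged from 87.1 to 491 CPM (median 187) and from 336 to 829 CPM (median 614), with overlap (log2 fold change -1.33 ± 0.49, adjusted p = 0.32). The list shares H2-DMb2 with the markers of dendritic cells, of which 15 of 17 tested had negative estimates (median -1.01). The summed level of the 19 dendritic cell markers ranged from 509.5 to 899 CPM in phagocytic and from 749 to 1197 CPM in non-phagocytic libraries, and their part in the value of H2-DMb2 was not tested. The gate for Fcrls+ and Ly6c- cells stood before both sorts. Fewer cells of a type and less RNA per cell cannot be told apart in bulk libraries.

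Of 41 tested cell cycle genes, 39 had negative estimates, with a median of -0.79, and 1 fell. Over all genes tested, 6484 of 12415 had negative estimates and 0.0644% fell. Pola1, the catalytic subunit of the polymerase that primes DNA replication, ranged from 33.0 to 89.2 CPM (median 54.7) in phagocytic and from 87.2 to 143 CPM (median 115) in non-phagocytic libraries (log2 fold change -1.08 ± 0.24, adjusted p = 0.0292; lost in 10 of 12 cases with 1 library left out). Ccne2, an S phase cyclin, had 4.34 ± 3.11 against 17.0 ± 7.20 CPM (log2 fold change -1.93 ± 0.59, adjusted p = 0.175). The mitotic gene Cenpf had 9.10 ± 3.24 against 21.6 ± 11.7 CPM (log2 fold change -1.20 ± 0.38, adjusted p = 0.198). The remaining 3 genes that fell were on no list, all without overlap. Ppp1r3d, a glycogen-targeting subunit of protein phosphatase 1, ranged from 7.14 to 18 CPM (median 15.2) and from 24.5 to 52.6 CPM (median 38.7), giving a log2 fold change of -1.48 ± 0.30 (adjusted p = 0.0205). Adamts1, a secreted protease, ranged from 47.3 to 89.9 CPM (median 65.7) and from 108 to 229 CPM (median 169), giving a log2 fold change of -1.33 ± 0.31 (adjusted p = 0.0492; lost in 11 of 12 cases with 1 library left out). Scaf11, a splicing-related protein, ranged from 84.8 to 134 CPM (median 119) and from 136 to 260.4 CPM (median 201), giving a log2 fold change of -0.77 ± 0.17 (adjusted p = 0.0331). Of 24 genes of glycolysis, 51 nuclear genes of oxidative phosphorylation and 13 genes of the mitochondrial genome none passed, with medians of 0.25, 0.14 and 0.11. With 0.467% of all genes tested past the threshold, lists of this length may hold no call. Positive estimates numbered 18, 43 and 10, against 47.8% of all genes. On the glycolysis list 2 genes were higher without overlap, against 0.524% of all genes. The glycolytic genes Aldoa (888 to 1274 CPM, median 1012, in phagocytic against 573 to 730.1 CPM, median 653, in non-phagocytic libraries; log2 fold change 0.68 ± 0.18, adjusted p = 0.115) and Pkm (log2 fold change 0.51 ± 0.18, adjusted p = 0.265) did not pass, although their groups did not overlap.

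Markers of other cells that the sort could hold moved in part with the uptake. Of 16 border macrophage markers 13 were tested, all 13 with positive estimates (median 1.62), and 4 passed: Pf4, F13a1, Ccl24 and Stab1. F13a1, the A subunit of coagulation factor XIII, ranged from 20.3 to 81.8 CPM (median 27.5) in phagocytic and from 0.821 to 14.0 CPM (median 5.05) in non-phagocytic libraries, without overlap (6.4-fold, log2 fold change 2.76 ± 0.50, adjusted p = 0.00911). The summed level of the 16 markers ranged from 782 to 1479.9 CPM in phagocytic and from 366 to 526 CPM in non-phagocytic libraries, and none was at 0 in all 12. This sum includes the 4 genes that passed and is not independent of their calls. Stab1 alone held 518 of 1092 CPM in phagocytic and 228 of 457 CPM in non-phagocytic libraries in the means. The mannose receptor Mrc1 ranged from 8.28 to 42.0 CPM (median 16.9) and from 0.907 to 15.6 CPM (median 7.54), giving a log2 fold change of 1.46 ± 0.48 (adjusted p = 0.22). These values stand beside every gene that macrophages of the tissue borders share with microglia, Lyz2, Ccl6 and the class I genes included, and their part in those results was not tested. Monocyte markers had 14 of 24 positive estimates with a median of 0.20, which became -0.17 without phagocytic pool 1. Their summed level ranged from 1073 to 2122 CPM in phagocytic and from 870.2 to 1675 CPM in non-phagocytic libraries. Ly6c2 did not pass (log2 fold change 0.15 ± 0.88, adjusted p = 0.983).

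**Figure D4:**
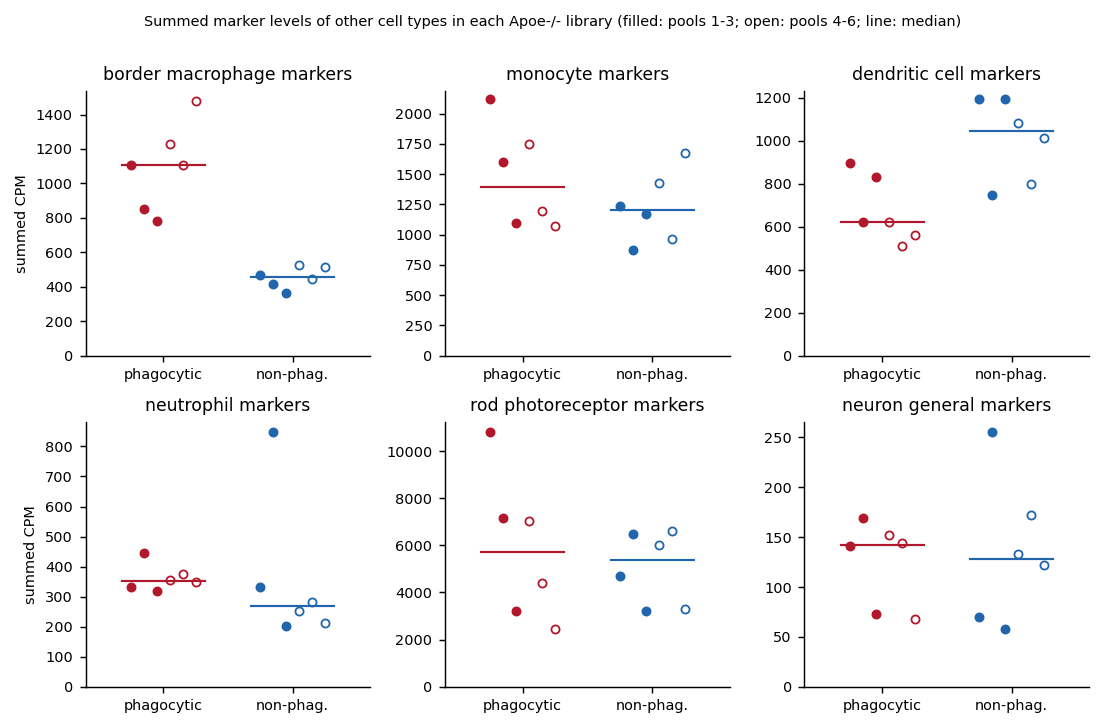
Summed CPM of the markers of 6 other cell types in each phagocytic (red) and non-phagocytic (blue) Apoe -/- library, with filled points for pools 1 to 3, open points for pools 4 to 6 and a line at the median. Border macrophage markers lie between 782 and 1479.9 CPM in phagocytic and between 366 and 526 CPM in non-phagocytic libraries without overlap, while the sums of monocyte, rod and neuron markers overlap. The border macrophage sum includes Stab1, Pf4, F13a1 and Ccl24, which passed the test.

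Markers of retinal cell types and of neurons in general were measured as well. The general neuron markers may come from the injected neurons or from the retina, and their source was not tested. The 19 markers of rod photoreceptors summed to 2438 to 10808 CPM in phagocytic and 3201 to 6612 CPM in non-phagocytic libraries. Although 19 of 19 estimates were positive, the median was 0.21 and none passed, and without phagocytic pool 1 the median was -0.00. Of 10 cone photoreceptor markers 7 were tested, and all 7 estimates were negative with a median of -1.38, while none passed. The 10 markers summed to 68.7 to 183 CPM in phagocytic and 70.5 to 336 CPM in non-phagocytic libraries, with overlap, the highest being non-phagocytic pool 5. The median was -0.27 without that pool, -0.86 without non-phagocytic pool 1, -2.33 without phagocytic pool 1 and -0.34 with limma-voom. Gnat2, the cone transducin, had 1.06 ± 1.47 against 6.86 ± 4.16 CPM (log2 fold change -2.60 ± 1.39, adjusted p = 0.563). None of 5 tested markers of bipolar and amacrine cells, 3 of ganglion cells and 9 of Mueller glia and astrocytes passed, with medians of 0.25, 0.07 and 0.21. Of 25 general neuron markers 8 passed the filter on low counts, and the 25 summed to 67.9 to 169 CPM in phagocytic and 57.9 to 255 CPM in non-phagocytic libraries. Snap25, a synaptic protein, had 26.6 ± 15.9 and 25.9 ± 8.81 CPM (log2 fold change 0.06 ± 0.62, adjusted p = 0.99). None of the 8 passed, with a median of -0.05. Haemoglobin genes reached 611 CPM in phagocytic pool 3 and at most 3.74 CPM in the other 11 libraries. The neutrophil genes S100a8 and S100a9 summed to 4.64, 146, 1.1, 68.3, 72.3 and 33.1 CPM in phagocytic pools 1 to 6, and to 420.1 CPM in non-phagocytic pool 2 and at most 11.2 CPM in the other 5 non-phagocytic pools. The groups overlapped, with the highest value in a non-phagocytic pool and those next to it in phagocytic pools 2, 5, 4 and 6.

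The pools fell into sets that both sorts shared. Reads of the Y-linked gene Ddx3y were at 13.3 to 26.5 CPM in pools 1 to 3 and at no more than 2.68 CPM in pools 4 to 6. In a fit of the 12 libraries with 4 groups of 3, added after the values were seen, each of the 58 genes kept its sign within both sets, which is no independent evidence because the genes were chosen on the same libraries. Within pools 1 to 3, 5 genes passed edgeR's test (0.0403% of those tested), 4 of them among the 58. Within pools 4 to 6, 48 passed (0.387%), 28 of them among the 58. A test of the difference between the sets called no gene by edgeR, with 480 genes (3.87%) at an unadjusted p under 0.05. Among the 58 genes 8 had such a p, and the smallest was that of Uap1l1, whose log2 fold change was 0.83 ± 0.28 in pools 1 to 3 and 2.69 ± 0.30 in pools 4 to 6 (edgeR adjusted p of the difference = 0.993). All 8 changed less in pools 1 to 3 than in pools 4 to 6. Of the 58 genes, 8 others changed more in pools 1 to 3, and the rest changed less there. Ccl9 changed by 1.00 ± 0.27 and 2.29 ± 0.28, Plin2 by 1.75 ± 0.29 and 2.63 ± 0.29, and Abca1 by 1.97 ± 0.33 and 2.02 ± 0.32. The level itself, averaged over both sorts, differed between the sets for 41 genes (0.33%), 3 of them among the 58. The sets were defined by the reads of Ddx3y, so a difference in that gene was fixed in advance. The 41 may include it and other sex-linked genes. Pools 1 to 3 held less Abca1 (log2 difference -1.49 ± 0.23, edgeR adjusted p = 0.00515) and less Abcg1 (-1.47 ± 0.18, 0.00063) and more Ccl24 (2.09 ± 0.37, 0.0165) than pools 4 to 6. The parts of sex, mouse and any shared handling in these differences between the sets cannot be told apart.

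**Figure D5:**
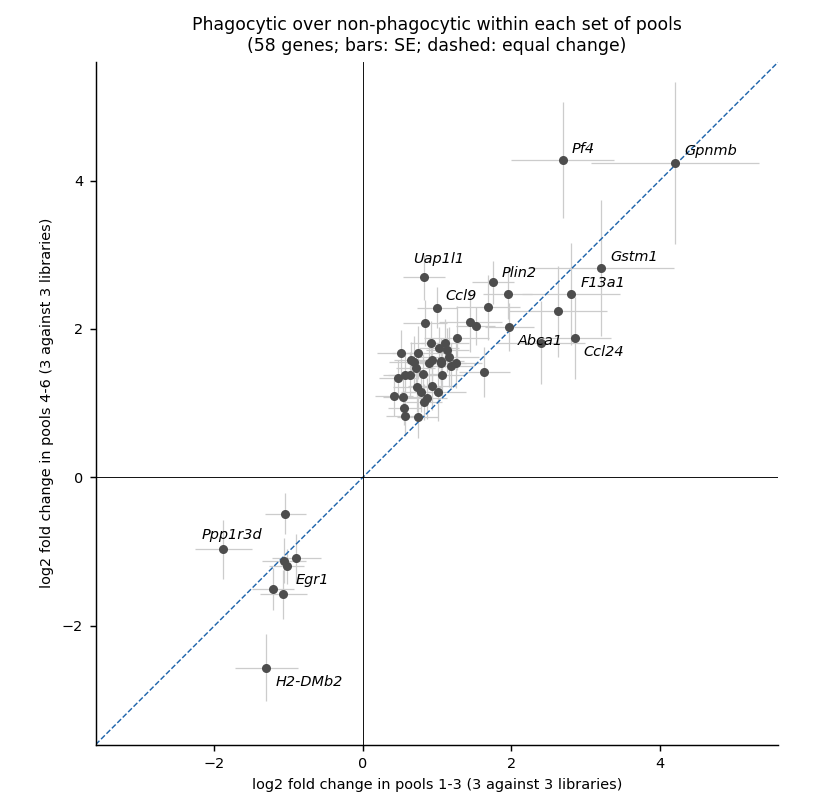
Log2 fold change, phagocytic over non-phagocytic, of the 58 genes within pools 1 to 3 (horizontal axis) and within pools 4 to 6 (vertical axis), with bars for the SE and a dashed line of equal change. All points lie where both values have the same sign; Uap1l1 (0.83 and 2.69) and Pf4 (2.69 and 4.27) lie above the line and Gpnmb lies close to it. The change is larger in pools 1 to 3 for 8 of the 58 genes and smaller there for the rest.

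The difference between the change with uptake in Apoe -/- cells and that in wild-type cells was tested as well. No gene passed edgeR's test of that difference, whose smallest adjusted p was 1.00, and 301 genes (2.42%) had an unadjusted p under 0.05. DESeq2, run as an alternative, called 2, and edgeR without the filter on low counts called 17. All 58 genes had the same sign in wild-type cells, as did 63.6% of all genes tested. In wild-type cells 0.209% of all genes passed (0.193% higher and 0.0161% lower). Of the 50 higher genes 17 passed there, and of the 8 lower genes none. The unadjusted p of the difference was under 0.05 for 6 of the 58. The 58 were chosen for their change in Apoe -/- cells, which is 1 side of this difference. The count of 6 is therefore no independent evidence of a difference between genotypes. Ppp1r3d had a log2 fold change of -1.48 ± 0.30 in Apoe -/- and -0.10 ± 0.32 in wild-type cells. Rusc2 had 2.02 ± 0.41 and 0.73 ± 0.42, Gm49339 1.4 ± 0.30 and 0.35 ± 0.32, and Cpt1a 1.08 ± 0.22 and 0.37 ± 0.24. Slc7a7 had 0.99 ± 0.22 and 0.31 ± 0.24, and Ccl6, with the larger rise in wild-type cells, 1.31 ± 0.28 and 2.41 ± 0.31. For Abca1 the difference, Apoe -/- minus wild type, was 0.15 ± 0.55, and for Abcg1 it was 1.10 ± 0.60. For Plin2, the gene with the smallest p, it was -0.02 ± 0.40, and for Gpnmb, with the largest fold change, 0.51 ± 1.06.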

How the data were processed

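Bulk SMART-Seq2 libraries were analysed from the transcript tables that the authors deposited, whose estimated counts are not normalised. Their TPM column was used only for lengths in 1 alternative, and the authors' deposited FPKM table, log2 transformed with a pseudocount of 1, was used for another. Named in the submitters' processing notes, without roles, are DESeq2 1.30.1, Salmon 1.4.0, the build mm10 and R 4.0.3. The sources used here do not give the transcript annotation, strandedness or duplicate handling. Each gene took the sum of the estimated counts of its transcripts (116072 of 116248 transcripts matched an annotated gene, and the rest held 0.118% to 0.262% of the reads) and was rounded. Genes were filtered by filterByExpr, scaled by TMM and tested with edgeR 4.0.16 (R 4.3.3) by glmQLFit and glmQLFTest over the 22 libraries in 4 groups, so that all groups share 1 estimate of the spread. P-values were adjusted by Benjamini-Hochberg over 12415 genes, with a threshold of 0.05. Fold changes are log2 ± SE, and CPM are TMM-scaled. No pair of libraries of a group agreed within sampling noise. The fitting code was tested on simulated data. Alternatives used DESeq2 1.42.0 and limma 3.58.1, other scalings and filters, covariates and left-out libraries. Comparing gene levels between genes was avoided because CPM are not divided by length.

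Genes named are those past the threshold, the sort markers and Apoe, up to 4 members with the smallest p of each of 40 lists, and 18 genes of prior interest, of which 2 are not reported here. S100a8 and the haemoglobin genes, the Y-linked genes Ddx3y and Eif2s3y, Oxa1l, Lilr4b, Lilrb4a and H2-DMb1 were added after their values were seen. The comparison, the lists and the members were chosen with earlier results of these data known. Genes and their coordinates are from GENCODE vM21 (GRCm38) and promoters from RefSeq (GRCm38.p6).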

Additional observations from a re-analysis of the deposited data

Results flagged for a closer look

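In 24 of 210 sets of 6 libraries that were checked (named genes and library measures in each sort), 1 library lay far from the other 5 by Dixon's criterion on log2 CPM; chance alone gives about 1 in 20. Non-phagocytic pool 2, which also had the highest share of satellite reads, accounted for the low values of Ninj1 (30.8 CPM against 42.6 to 48.6 in the other pools), Clec4a3 (27.5 against 39.2 to 47.5), Tmem106a (6.66 against 33.3 to 53.6), Clec7a (93.2 against 179.9 to 257), Itgax (23.3 against 70.6 to 90.4), H2-D1 (297 against 728 to 1184) and Fcgr4 (46.6 against 107 to 157), and for the high value of S100a9 (247 against at most 4.85). Phagocytic pool 2 was low in Gstm1 (6.41 CPM against 17.4 to 28.6), Npc2 (405 against 658 to 850.4), H2-D1 (855 against 1389 to 1666) and Fcgr4 (121 against 224 to 271). Phagocytic pool 3 was low in Cstb (137 CPM against 227 to 306) and Anxa5 (89.4 against 169.8 to 217). Phagocytic pool 1 was low in Scaf11 (84.8 CPM against 118 to 134) and high in Cd36 (413 against 172 to 228). Fabp3 was highest in phagocytic pool 5 (9.82 CPM) and in non-phagocytic pool 4 (2.68 CPM), and Clec7a was lowest in phagocytic pool 6 (132.5 CPM). Among the other non-phagocytic pools, pool 3 was low in C3 (0.411 CPM) and Snap25 (10.7 CPM), pool 4 was high in Glrx (112 CPM), pool 5 was low in Ccne2 (4.36 CPM), and pool 6 was low in Rhoc (9.37 CPM).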

How the results depend on the processing

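Against 58 genes past the threshold, DESeq2 called 168 (123 higher, 45 lower, all 58 among them), limma-voom 36, edgeR without the filter on low counts 137, the fit with the pool sets by Ddx3y as a covariate (added after seeing the data) 89, limma on FPKM 26 and edgeR without non-phagocytic pools 2 and 5 (also added) 16; the causes were not tested. Higher genes made up 86.2% of the calls at first, 73.2% with DESeq2, 73.7% without the filter and 68.4% with the replicate block. With 1 library left out the number ran from 21 to 70. Same-numbered libraries of both sorts correlated above 0.1 in 4 of 6 pairs (0.0626 to 0.214), and 5 of 6 correlated best with their own number. The labels do not say that equal numbers share mice, so the main test took the libraries as unpaired. Any variation that same-numbered libraries share thus stays in its estimate of the spread. A replicate block gave 256 calls, all 58 among them. For the difference between genotypes, 0 genes passed at first, 2 with DESeq2 and 17 without the filter, and 0 under each of the other alternatives run. Of the 58 genes, 8 (Plin2, Ccl9, Ninj1, Uap1l1, Fth1, Ftl1, Bst2, Pf4) passed under all 26 alternatives that were run.

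Signs changed only for named genes that had not passed. Axl had a log2 fold change of 0.143, and -0.0768 with length-scaled counts, -0.0708 with limma on FPKM and -0.111 with non-phagocytic pools 2 and 5 left out. Left-out libraries gave Axl -0.0208 to 0.274. Srebf1 had a log2 fold change of 0.366, and -0.0719 with length-scaled counts and -0.0156 with limma on FPKM. Ly6c2 had a log2 fold change of 0.155, and -0.00742 with the replicate block and -0.0475 with non-phagocytic pools 2 and 5 left out. Left-out libraries gave Ly6c2 -0.406 to 0.519. Snap25 had a log2 fold change of 0.0601, and -0.00959 with limma-voom, -0.0929 with the replicate block and -0.16 with limma on FPKM. Left-out libraries gave Snap25 -0.116 to 0.267. S100a9 had a log2 fold change of -0.92, and 0.133 with limma-voom, 1.79 with the satellite covariate, 0.645 with the replicate block, 0.585 with limma on FPKM and 2.68 with non-phagocytic pools 2 and 5 left out. Left-out libraries gave S100a9 -1.76 to 2.84. Of 1014 list medians under alternatives, 47 changed sign, in 12 of 39 lists. Genes at a few CPM rest on few estimated reads.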
